A study of Mus musculus with 8 samples.

Results

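The 10 genes described here belong to bone morphogenetic protein (BMP) signalling: the procollagen and chordin protease Bmp1, the ligands Bmp2, Bmp4 and Bmp6, the secreted antagonists Grem1 and Chrdl1, the target genes Id1, Id2 and Id3, and the inhibitory Smad gene Smad6. They were taken by symbol from the expression tables, 10 of 55276 symbols in each library. The data were 8 RNA-seq libraries of GFP+ fibro-adipogenic progenitors (FAPs), mesenchymal cells of the muscle interstitium. The cells had been sorted from the freeze-pierce-injured tibialis anterior of mice. Control mice were Osr1 flox/+ CAGG Cre+ and Osr1cKO mice were Osr1 flox/flox CAGG Cre+. There were 2 libraries of each genotype at 3 days post injury (dpi) and 2 at 7 dpi. Both genotypes carried the ubiquitous tamoxifen-inducible Cre, received tamoxifen at injury and on the following days, were 4 to 6 months old, and expressed eGFP from a recombined Osr1 allele. The controls were thus heterozygous and not wild type. A library held the cells of 1 mouse at 3 dpi and of 4 pooled mice at 7 dpi, so the day cannot be told apart from pooling. In fits within a day the p-values therefore measure the spread between single mice at 3 dpi or between pools at 7 dpi. Fits of all 8 libraries use a spread shared by single mice and pools.

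BMP ligands bind receptor complexes of the type I and type II classes, which phosphorylate Smad1, Smad5 and Smad9. With Smad4 these enter the nucleus and induce target genes, among them the Id genes, whose products block basic helix-loop-helix factors, and Smad6, a feedback inhibitor. Gremlin 1 and Chordin-like 1 bind ligands outside the cell, whereas Bmp1 is not a ligand in spite of its name and cuts procollagens and the antagonist chordin. In muscle, BMP signalling is known for acting on muscle stem cells and for driving mesenchymal progenitors towards bone when it is excessive.

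By symbol, 6 of the 10 genes had promoter entries from RefSeq (GRCm38.p6, the assembly of mm10), namely Bmp4, Bmp6, Grem1, Id2, Id3 and Smad6. For a ligand, an antagonist and a feedback target whose levels moved between the days, the 250 bases before the start are given 5′ to 3′ along the gene's own strand, since these windows hold no annotated exon. They are chr14:46390670-46390919 (minus strand) for Bmp4, chr2:113758649-113758898 (minus strand) for Grem1 and chr9:64022060-64022309 (minus strand) for Smad6. Capitals mark the letters GGCGCC and GTCT on either strand (GTCT reads AGAC on the other strand), 2 motifs that Smad proteins are known to bind.
Bmp4: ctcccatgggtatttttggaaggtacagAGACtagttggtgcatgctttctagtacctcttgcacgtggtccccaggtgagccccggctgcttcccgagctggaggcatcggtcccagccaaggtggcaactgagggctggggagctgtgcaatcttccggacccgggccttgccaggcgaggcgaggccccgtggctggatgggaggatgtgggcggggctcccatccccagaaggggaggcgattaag
Grem1: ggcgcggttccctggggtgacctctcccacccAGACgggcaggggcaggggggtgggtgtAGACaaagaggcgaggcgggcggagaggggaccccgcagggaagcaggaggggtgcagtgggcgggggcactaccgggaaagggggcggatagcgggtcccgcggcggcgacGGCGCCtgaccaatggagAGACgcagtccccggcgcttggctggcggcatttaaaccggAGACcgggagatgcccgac
Smad6: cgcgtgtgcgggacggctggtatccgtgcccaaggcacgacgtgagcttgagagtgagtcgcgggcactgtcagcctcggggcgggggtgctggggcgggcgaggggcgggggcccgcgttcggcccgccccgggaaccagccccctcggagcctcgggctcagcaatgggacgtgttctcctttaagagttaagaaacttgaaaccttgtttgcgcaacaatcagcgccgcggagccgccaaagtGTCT
Grem1 held 1 GGCGCC and 4 matches to GTCT, whereas Bmp4 and Smad6 held 1 GTCT each and no GGCGCC. Of 32851 promoter windows of this length, 9.59% held GGCGCC and 82.9% held GTCT. A match is a description of the letters and was not tested as a binding site.

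In mm10, Bmp1 lies on chromosome 14 at 70474558 to 70520234 and Bmp4 on the same chromosome at 46383520 to 46390669, both on the minus strand. Bmp2 lies on chromosome 2 at 133552159 to 133562885 and Bmp6 on chromosome 13 at 38345107 to 38500302, both on the plus strand. Grem1 lies on chromosome 2 at 113746164 to 113758646 and Chrdl1 on chromosome X at 143285674 to 143394262, both on the minus strand. Id1 lies on chromosome 2 at 152736251 to 152737410 and Id3 on chromosome 4 at 136143497 to 136145755, both on the plus strand. Id2 lies on chromosome 12 at 25093799 to 25097140 and Smad6 on chromosome 9 at 63953076 to 64022059, both on the minus strand. Each value sums reads over the annotated exons of a protein-coding gene, untranslated parts included. On the opposite strand, Gm15217 overlaps 3.96% of the exonic bases of Bmp4 and Txndc5 overlaps 5.74% of those of Bmp6. Whether counting used strand is not given in the sources used here, so these 2 genes are the uncertain ones.

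Levels are given as the deposited TPM, the share of all transcripts in a library that comes from a gene, corrected for gene length, which allows genes to be compared with each other. The depth recovered from these values lay between 36516523 and 51096356 fragments per library. The 7 FAP markers summed to between 20281 and 35016 TPM per library, of which Col1a1 made up the most, and none of them was at 0. At 3 dpi the FAP surface marker Ly6a, which encodes Sca-1, was at 5407 and 4232 TPM in controls and at 3058 and 2020 TPM in Osr1cKO (-0.94 on the log2 scale, SE 0.35, adjusted p = 0.786, limma), with an unadjusted p that was under 0.05. Beside Osr1, the other FAP markers went in different directions at that day. Pdgfra (254 and 335 TPM against 365 and 340 TPM in controls) and Dcn (848 and 1099 TPM against 1332 and 1228 TPM) were also lower in Osr1cKO. Dpt was higher (728 and 653 TPM against 547 and 641 TPM), and Col1a1 and Pi16 overlapped between the genotypes. The part of these marker differences in the differences of the 10 genes at 3 dpi was not tested. The targeted gene Osr1 was lower in Osr1cKO at both days. At 3 dpi it was at 105 and 91.0 TPM in controls and 70.7 and 71.9 TPM in Osr1cKO. At 7 dpi it was at 67.6 and 71.6 TPM in controls and 64.4 and 60.8 TPM in Osr1cKO. Its log2 fold change was -0.45 (adjusted p = 0.773, limma) at 3 dpi and -0.28 (adjusted p = 0.312) at 7 dpi. No library had a value of 0 for Osr1, and the tables do not separate the exons that recombination removes. These values therefore cannot decide whether the genotype labels are right. The paper checked recombination by the reads over those exons. The control library of replicate 1 at 3 dpi stood apart from the other libraries. Its Kdr, an endothelial receptor, was at 16.8 TPM against 0.88 to 2.25 TPM elsewhere, and its Col1a1 was at 12404 TPM against at least 20485 TPM. Of the other endothelial markers, Tek (25.4 TPM against 14.9 to 16.5 TPM) and Esam (1.71 TPM against 0.45 to 0.94 TPM) were also highest there among the libraries of 3 dpi, whereas Pecam1 (1.19 TPM), Cdh5 (0.82 TPM) and Emcn (0.10 TPM) were close to the levels in the other control of that day (1.10, 1.12 and 0.16 TPM). The median gene differed by 0.244 on the log2 scale between the 2 controls at 3 dpi and by 0.134 to 0.154 between the libraries of the other groups.

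Id3 and Bmp1 were the most abundant of the 10 genes in every group, and Grem1 was the least abundant in every group. In controls at 3 dpi the mean order was Id3 at 442 TPM, Bmp1 at 322, Id1 at 226, Bmp2 at 49.7, Id2 at 35.01, Smad6 at 29.5, Bmp6 at 20.4, Bmp4 at 18.9, Chrdl1 at 14.9 and Grem1 at 0.95 TPM. In that order Id2 and Smad6, Smad6 and Bmp6, Bmp6 and Bmp4, and Bmp4 and Chrdl1 had overlapping libraries, so these neighbours did not differ beyond their spread. In Osr1cKO at 3 dpi Bmp1 led at 364 TPM, followed by Id3 at 327 and Id1 at 151 TPM, and only Smad6 and Bmp4 overlapped as neighbours. By 7 dpi Id1 had come down to the range of Id2, with means of 59.0 and 62.8 TPM in controls and 70.5 and 62.7 TPM in Osr1cKO. At that day Id3 and Bmp1, Id2 and Id1, Id1 and Bmp2, and Chrdl1 and Bmp6 overlapped as neighbours in controls, and Id1 and Id2, and Chrdl1 and Bmp6, in Osr1cKO.

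**Figure D1:**
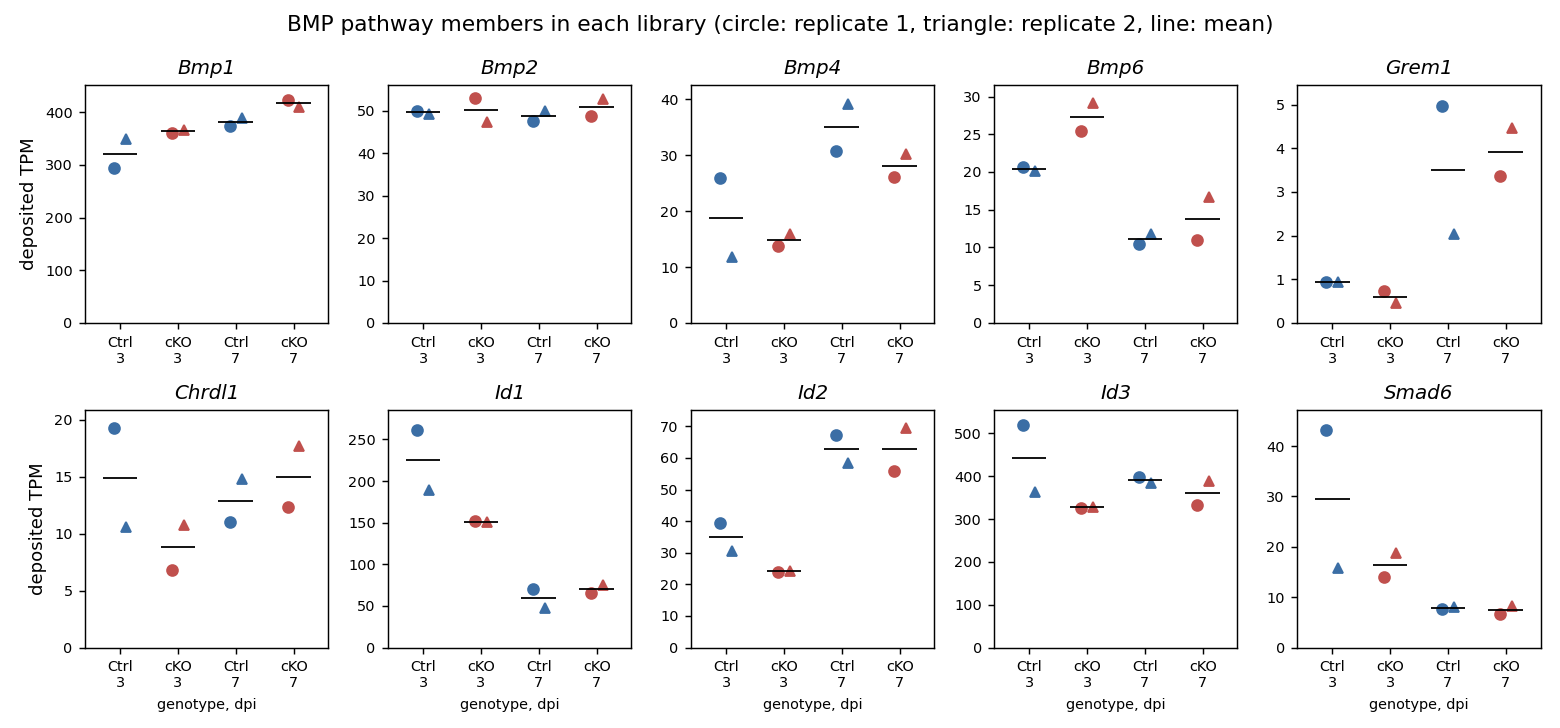
Deposited TPM of each of the 10 genes (vertical axes, linear, starting at 0, with a different range for each gene) in the 2 control (blue) and 2 Osr1cKO (red) libraries at 3 and 7 dpi; circles are replicate 1, triangles replicate 2 and lines group means. Id1 and Smad6 are lower at 7 dpi than at 3 dpi in both genotypes, Id2 and Grem1 are higher, and the circle of the controls at 3 dpi is far above its partner for Smad6 (43.2 against 15.9 TPM).

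The comparison of genotypes at 3 dpi asks how FAPs without functional Osr1 differed from control FAPs early after injury. Id1 and Id2 were lower and Bmp6 was higher in Osr1cKO, and the other 7 genes did not pass the test. A gene was called at 3 dpi where the fold change exceeded 1.2 with an unadjusted p under 0.05, the thresholds of the study's methods. Fold changes and their standard errors (SE) were fitted with limma on log2(TPM + 1) after scaling the libraries to each other, so that changes of genes near 1 TPM are understated. By this rule 3 of 10 genes were called, 1 higher and 2 lower, against 6.29% of the 15699 genes tested (2.37% higher and 3.92% lower). None of the 15699 genes, members included, passed an adjusted p under 0.1 in limma, and limma-voom on recovered fragments called the same number of members at the unadjusted threshold. The median log2 fold change of the 10 genes was -0.35, beside 0.01 for all genes tested, and it was -0.08 with control replicate 1 left out and -0.65 with control replicate 2 left out.

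Id1, whose product holds cells in an undifferentiated state, was at 262 and 190 TPM in controls and at 152 and 151 TPM in Osr1cKO at 3 dpi. Both Osr1cKO libraries were below both controls, and they lay within 2 TPM of each other. The log2 fold change was -0.55 (SE 0.18), a 0.682-fold level, with an adjusted p of 0.773 in limma and a 95% interval from -1.01 to -0.09. Id2 was at 39.5 and 30.5 TPM in controls and at 24.1 and 24.3 TPM in Osr1cKO. Its libraries did not overlap either, and the log2 fold change was -0.50 (SE 0.16, 95% interval -0.92 to -0.08, adjusted p = 0.773). Id3, the most abundant of the family, was at 519 and 364 TPM in controls and at 326 and 327 TPM in Osr1cKO. All 3 Id genes thus had both Osr1cKO libraries below both controls, but the difference of Id3 (-0.41, SE 0.20, 95% interval -0.92 to 0.11) did not pass the test. Smad6 was at 43.2 and 15.9 TPM in controls and at 14.1 and 18.7 TPM in Osr1cKO. Here the genotypes overlapped, since control replicate 2 fell between the Osr1cKO libraries, and the log2 difference was -0.66 with an SE of 0.46.

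Of the ligands, Bmp6 was at 20.6 and 20.1 TPM in controls and at 25.4 and 29.1 TPM in Osr1cKO at 3 dpi. Both Osr1cKO libraries were above both controls, and the log2 fold change was 0.40 (SE 0.14), a 1.32-fold level, with an adjusted p of 0.786 in limma and a 95% interval from 0.04 to 0.76. Bmp2 was at 49.96 and 49.4 TPM in controls and at 53.2 and 47.3 TPM in Osr1cKO. Bmp2 had a log2 difference of 0.02, whose 95% interval ran from -0.33 to 0.37. Bmp4 was at 25.9 and 11.8 TPM in controls and at 13.7 and 15.9 TPM in Osr1cKO. Its control libraries lay on either side of the Osr1cKO libraries, and the difference was -0.23 (95% interval -1.16 to 0.70). Bmp1 was at 294 and 349 TPM in controls and at 361 and 367 TPM in Osr1cKO. Its libraries did not overlap, but the difference of 0.19 (SE 0.16) did not pass the test.

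Neither antagonist was called at 3 dpi. Grem1 was at 0.95 and 0.95 TPM in controls and at 0.72 and 0.46 TPM in Osr1cKO. These values rest on 49 and 50 fragments and on 38 and 25 fragments, and the log2 difference was -0.29 (SE 0.16). Chrdl1 was at 19.3 and 10.6 TPM in controls and at 6.82 and 10.8 TPM in Osr1cKO. The log2 difference of Chrdl1 was -0.67 with an SE of 0.34, and it was -0.29 without control replicate 1. Counted over all 10 genes, 4 had both Osr1cKO libraries below both controls in deposited TPM (Grem1, Id1, Id2 and Id3) and 2 had both above (Bmp1 and Bmp6). Of all genes tested, 18.0% and 18.2% did so (36.2% together). After scaling, Chrdl1 was also below, with 10.6 TPM in the higher Osr1cKO library and 10.7 TPM in the lower control.

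**Figure D2:**
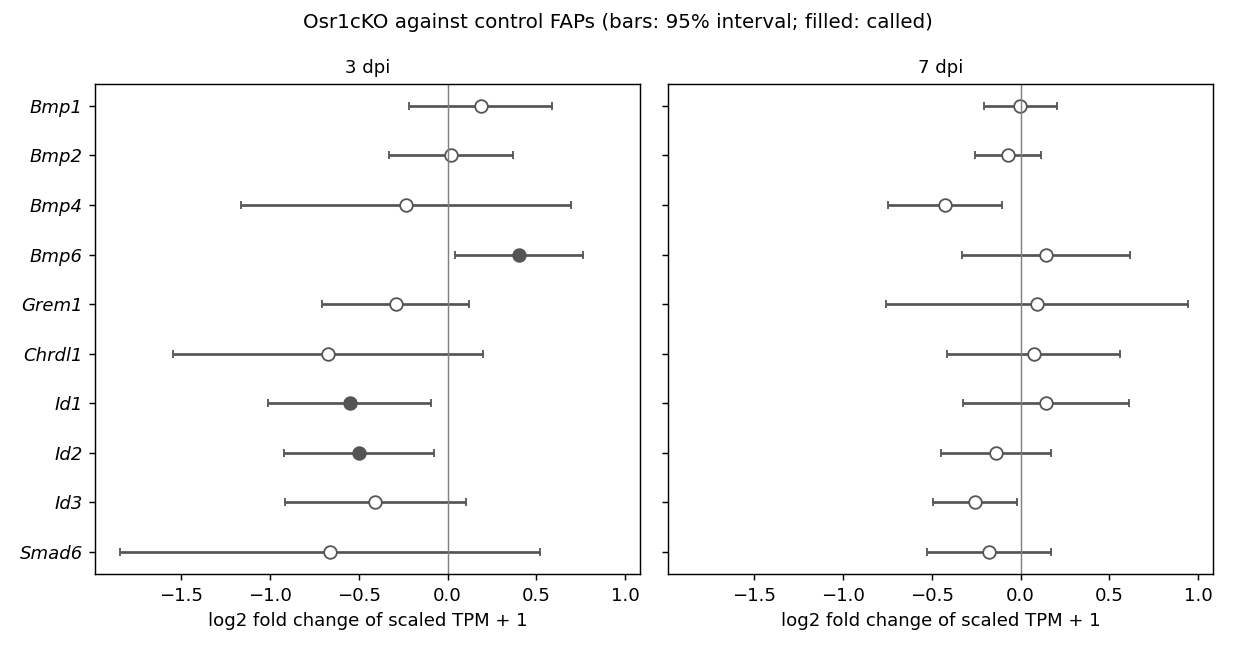
Log2 fold change of Osr1cKO against control on the scaled TPM + 1 scale (horizontal axes, the same range in both panels) for each gene at 3 dpi and 7 dpi, with 95% intervals; filled points were called by the rule of that day. At 3 dpi Id1 (-0.55), Id2 (-0.50) and Bmp6 (0.40) are filled, and at 7 dpi no gene is.

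The calls at 3 dpi depended on single libraries. In fits that leave 1 group with a single library, that library is assumed to vary like the others. Without control replicate 1, the library that stood apart, only Id1 was called, at a log2 difference of -0.34. Id2 was then at -0.34 and Bmp6 at 0.40, not called, and Smad6 was at 0.01. Without control replicate 2, Smad6 was at -1.34, Chrdl1 at -1.06, Id1 at -0.76, Bmp4 at -0.75, Id2 at -0.66 and Id3 at -0.64. Grem1 was then at -0.29, Bmp2 at 0.03, Bmp1 at 0.33 and Bmp6 at 0.40. Id1, Id2 and Bmp6 kept their direction with each of the 4 libraries left out. Since their libraries did not overlap between the genotypes, the direction could hardly change, so this is no further support. Without Osr1cKO replicate 1 or without Osr1cKO replicate 2, 0 of 10 genes were called. The differences were then -0.58 and -0.52 for Id1, -0.51 and -0.48 for Id2, and 0.48 and 0.34 for Bmp6. The part of control replicate 1 in the differences of Smad6, Bmp4, Chrdl1 and Id3 was not tested beyond leaving it out, and the 6 endothelial markers summed to 46.1 TPM in it against 18.1 to 22.0 TPM in the other libraries of that day. The 3 tenocyte markers (Scx, Tnmd and Mkx) summed to 5.22 and 9.29 TPM in controls and to 16.5 and 11.1 TPM in Osr1cKO at 3 dpi, and to 81.8 and 155 TPM against 287 and 389 TPM at 7 dpi. These sums did not overlap between the genotypes at either day, and their part in the genotype differences was not tested.

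**Figure D3:**
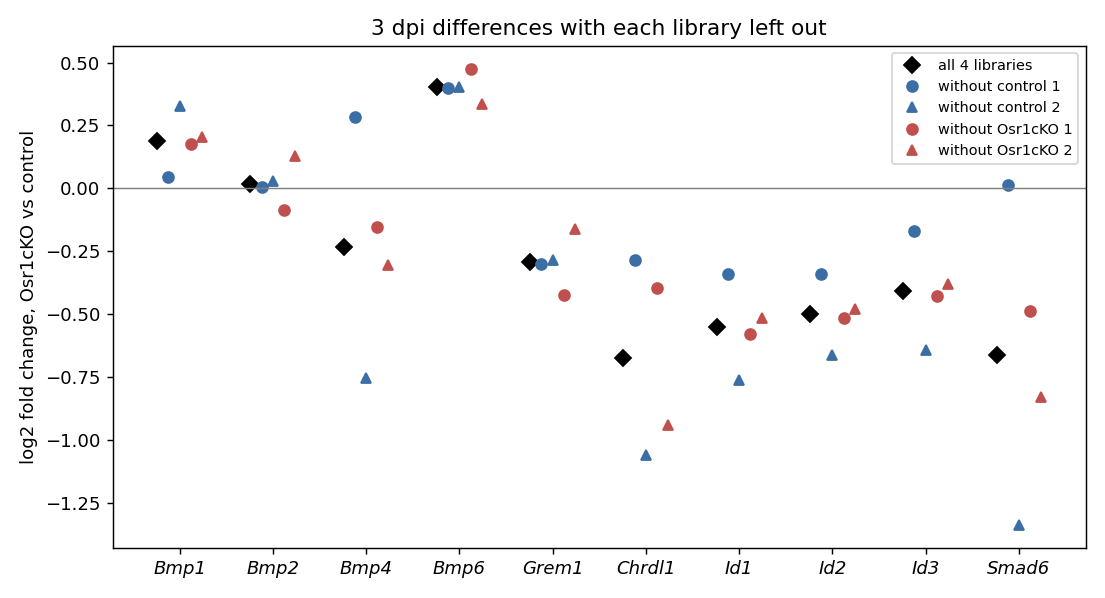
Log2 fold change of Osr1cKO against control at 3 dpi (vertical axis) for each gene from all 4 libraries (black diamonds) and with each library left out in turn (blue, a control left out; red, an Osr1cKO library left out; circle, replicate 1; triangle, replicate 2). Bmp6 stays between 0.34 and 0.48, Id1 between -0.76 and -0.34, and Smad6 spans -1.34 to 0.01.

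At 7 dpi the same comparison found no member called, by a fold change over 1.2 with a Benjamini-Hochberg adjusted p under 0.1, the threshold of the study's methods for that day. The background was 0.0844%, 14 of the 16578 genes tested (0.0181% higher and 0.0664% lower). The study applied these thresholds in DESeq2 and reported many more genes at this day. The low background therefore belongs to the limma fit and is not the study's count. By the unadjusted rule used at 3 dpi, 1 of 10 genes passed, Bmp4, against 11.2% of all genes. Limma-voom on recovered fragments called 0 members as well. The median log2 fold change of the 10 genes was -0.04, beside 0.00 for all genes tested. Without the further scaling, the deposited TPM put the median of all genes at 0.11 higher in Osr1cKO at this day, so differences are given relative to the scaled libraries.

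Bmp4 was at 30.7 and 39.2 TPM in controls and at 26.1 and 30.2 TPM in Osr1cKO at 7 dpi. Both Osr1cKO libraries were below both controls, with a log2 difference of -0.43 (SE 0.13, adjusted p = 0.320, limma). Without control replicate 1 its difference was -0.58 (adjusted p = 0.0733) and it was called, the single member that was in any fit with a library left out. Without control replicate 2 it was -0.27. Id3 was at 399 and 385 TPM in controls and at 332 and 389 TPM in Osr1cKO. The deposited values overlapped, and after scaling the difference was -0.26 (SE 0.09, adjusted p = 0.369), a 0.837-fold level that does not reach the fold threshold.

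The genes called at 3 dpi had small differences at 7 dpi. Id1 was at 70.1 and 47.8 TPM in controls and at 66.1 and 74.9 TPM in Osr1cKO. The libraries overlapped, and the difference was 0.15 (95% interval -0.32 to 0.61). Id2 was at 67.4 and 58.3 TPM in controls and at 55.9 and 69.5 TPM in Osr1cKO, a difference of -0.14 (95% interval -0.45 to 0.17). Bmp6 was at 10.4 and 11.8 TPM in controls and at 11.0 and 16.7 TPM in Osr1cKO. One Osr1cKO library was within the range of the controls and the other above it, with a difference of 0.14 (95% interval -0.33 to 0.62).

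Grem1 was at 4.97 and 2.03 TPM in controls and at 3.36 and 4.47 TPM in Osr1cKO at 7 dpi. The 2 controls lay outside the Osr1cKO libraries on either side, and the difference of 0.09 had a 95% interval from -0.76 to 0.94. Chrdl1 was at 11.0 and 14.8 TPM in controls and at 12.4 and 17.7 TPM in Osr1cKO, Smad6 at 7.64 and 8.06 TPM against 6.75 and 8.28 TPM, and Bmp2 at 47.5 and 50.01 TPM against 48.9 and 52.9 TPM. All 3 overlapped in deposited TPM. Bmp1 was at 373 and 389 TPM in controls and at 424 and 411 TPM in Osr1cKO. Its deposited libraries did not overlap, but after scaling they did and the difference was -0.00 (SE 0.08). In deposited TPM 1 gene of 10 was above in both Osr1cKO libraries and 1 below, where 42.8% and 10.7% of all genes were (53.5% together). After scaling 4 were below (Bmp2, Bmp4, Id3 and Smad6) and 0 above, where 22.8% and 22.6% of all genes were (45.4% together).

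The difference between 7 and 3 dpi was taken in each genotype from a fit of all 8 libraries, with calls at a fold change over 1.2 and an adjusted p under 0.05. Id2 and Grem1 rose and Id1 and Bmp6 fell in both genotypes, and Bmp4 rose and Smad6 fell by this test in controls. In controls 6 of 10 genes were called, 3 in each direction, against 45.3% of 17371 genes (20.4% higher and 24.9% lower). In Osr1cKO 4 of 10 were called, 2 in each direction, against 40.5% (17.5% higher and 22.9% lower). In deposited TPM the libraries of the days did not overlap for 7 of 10 genes in controls and 9 of 10 in Osr1cKO, against 74.3% and 76.1% of all genes. These shares of members are to be read beside backgrounds that are themselves high.

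Id1 fell from 262 and 190 TPM to 70.1 and 47.8 TPM in controls, a log2 difference of -1.88 (SE 0.20, adjusted p = 0.000633, limma). In Osr1cKO it fell from 152 and 151 TPM to 66.1 and 74.9 TPM, a difference of -1.19 (SE 0.20, adjusted p = 0.00419). The libraries of the days did not overlap in either genotype. Id2 moved the other way, from 39.5 and 30.5 TPM to 67.4 and 58.3 TPM in controls (0.88, SE 0.15, adjusted p = 0.00299) and from 24.1 and 24.3 TPM to 55.9 and 69.5 TPM in Osr1cKO (1.24, SE 0.15, adjusted p = 0.00120). Id3 stayed near its level, with differences of -0.10 (95% interval -0.47 to 0.27) in controls and 0.04 (95% interval -0.32 to 0.41) in Osr1cKO. The Id genes, which are often read together as targets of BMP signalling, thus had 1 member falling, 1 rising and 1 that did not pass the test.

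Smad6 went from 43.2 and 15.9 TPM to 7.64 and 8.06 TPM in controls (-1.58, SE 0.38, adjusted p = 0.0129) and from 14.1 and 18.7 TPM to 6.75 and 8.28 TPM in Osr1cKO (-1.11, SE 0.38, adjusted p = 0.0522). The second value missed the threshold, which it passed with a pseudocount of 0.1 (-1.20) or a filter on mean TPM, although no library of 7 dpi reached the level of any library of 3 dpi. Without control replicate 1 of 3 dpi the difference was -0.95 in controls, and in Osr1cKO, where the fit shares its spread, it was then called at -1.12 (adjusted p = 0.00230). Without control replicate 2 of 3 dpi the Osr1cKO difference was also called (-1.12, adjusted p = 0.00212), while that of controls was -2.25. The call in controls was lost without control replicate 1 or 2 of 7 dpi (adjusted p = 0.0566 and 0.0594).

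Among the ligands, Bmp6 fell from 20.6 and 20.1 TPM to 10.4 and 11.8 TPM in controls (-0.78, SE 0.18, adjusted p = 0.0109) and from 25.4 and 29.1 TPM to 11.0 and 16.7 TPM in Osr1cKO (-1.04, SE 0.18, adjusted p = 0.00411). Bmp4 rose from 25.9 and 11.8 TPM to 30.7 and 39.2 TPM in controls (0.99, SE 0.30, adjusted p = 0.0295) and was at 13.7 and 15.9 TPM against 26.1 and 30.2 TPM in Osr1cKO (0.80, SE 0.30, adjusted p = 0.0674). The libraries of the days did not overlap for either ligand in either genotype. The call for Bmp4 in controls was lost in 5 of the fits with a library left out: without control replicate 2 of 3 dpi (0.48, adjusted p = 0.0567), control replicate 1 or 2 of 7 dpi (0.0647 and 0.148), or Osr1cKO replicate 1 or 2 of 7 dpi (0.0507 and 0.0505). Without either control of 3 dpi, the difference of Bmp4 in Osr1cKO was called (adjusted p = 0.00462 and 0.00447). Bmp2 differed by 0.02 and -0.07 between the days and Bmp1 by 0.30 and 0.10, with no call; without control replicate 2 of 3 dpi Bmp1 was called in controls (0.45, adjusted p = 0.0186).

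The antagonist Grem1 rose from 0.95 and 0.95 TPM to 4.97 and 2.03 TPM in controls (1.16, SE 0.32, adjusted p = 0.0214) and from 0.72 and 0.46 TPM to 3.36 and 4.47 TPM in Osr1cKO (1.56, SE 0.32, adjusted p = 0.00815). In recovered fragments this was 49 and 50 against 222 and 93 in controls, and 38 and 25 against 134 and 178 in Osr1cKO. The log2 differences are on the TPM + 1 scale, which understates changes at these levels. Chrdl1 differed by -0.11 in controls and 0.63 in Osr1cKO, with no call, and its control libraries of the days overlapped. Without control replicate 1 of 7 dpi only Id1 and Id2 were called in controls, since Grem1 (0.66, adjusted p = 0.0674), Bmp6 (-0.72, adjusted p = 0.0618), Bmp4 and Smad6 missed the threshold. Grem1 also missed it in controls without control replicate 1 or 2 of 3 dpi (adjusted p = 0.0604 and 0.0609) and in Osr1cKO without Osr1cKO replicate 2 of 7 dpi (1.41, adjusted p = 0.0545).

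**Figure D4:**
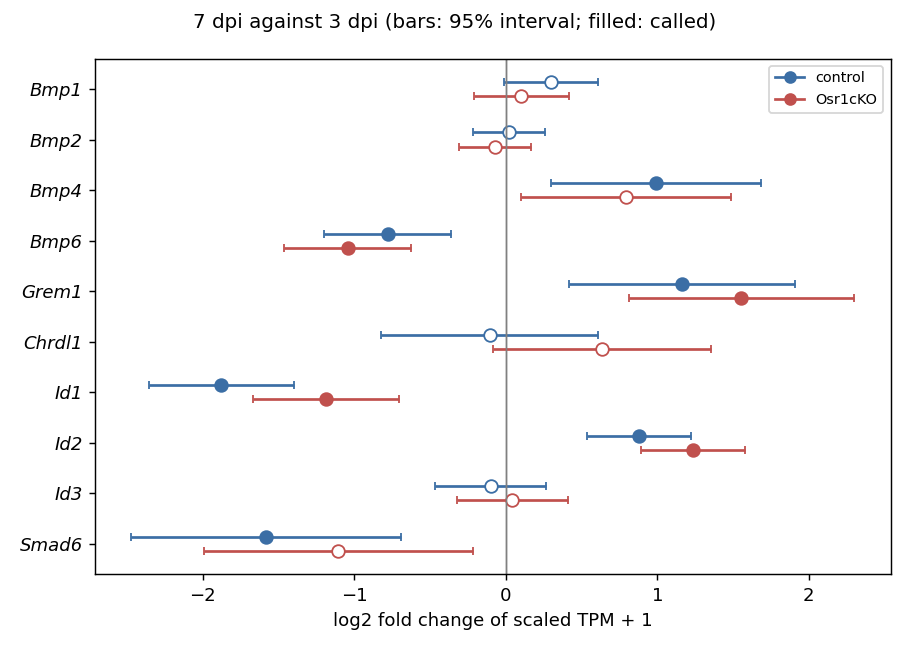
Log2 difference of 7 dpi against 3 dpi on the scaled TPM + 1 scale (horizontal axis) for each gene in control (blue) and Osr1cKO (red) FAPs, with 95% intervals from the fit of 8 libraries; filled points were called. Id1 (-1.88 and -1.19) and Bmp6 lie to the left in both genotypes, and Id2 (0.88 and 1.24) and Grem1 to the right.

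Markers of other cells were also higher at 7 dpi. The 6 endothelial markers summed to 18.1 to 46.1 TPM per library at 3 dpi and to 49.3 to 75.2 TPM at 7 dpi, the 8 leukocyte markers to 11.0 to 20.1 and 45.8 to 64.4 TPM, and the 5 mural markers to 13.2 to 25.2 and 35.8 to 101 TPM. The 3 tenocyte markers summed to 5.22 to 16.5 TPM at 3 dpi and to 81.8 to 389 TPM at 7 dpi, the 4 myofiber markers to 5.34 to 10.8 and 32.6 to 52.8 TPM, the 5 muscle stem cell markers to 0.37 to 1.37 and 3.23 to 28.4 TPM, and the 4 Schwann cell markers to 2.13 to 4.02 and 6.16 to 15.9 TPM. At 3 dpi between 1 and 4 of the 5 muscle stem cell markers were at 0 in each library, and at 7 dpi none was. At 7 dpi the mural markers summed to 101 and 35.8 TPM in controls and to 50.7 and 80.6 TPM in Osr1cKO. Grem1 had the same order over these libraries (4.97, 2.03, 3.36 and 4.47 TPM), and the endothelial and leukocyte sums had other orders. Of the single mural markers, Rgs5 (63.6, 12.3, 27.6 and 50.8 TPM) and Myh11 had this order, and Kcnj8, Abcc9 and Notch3 did not. At 3 dpi the mural sum and Grem1 were ordered differently. How many of all genes had the same order was not counted. The muscle stem cell markers summed to 28.4 and 3.23 TPM in controls and to 7.36 and 6.92 TPM in Osr1cKO. The part of these cells in the differences between the days, that of Grem1 included, was not tested. In sorted bulk cells, fewer cells expressing a gene and less RNA per cell cannot be told apart.

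Whether the genotype difference itself changed between the days was tested as an interaction over all 8 libraries, with calls at an adjusted p under 0.05. None of the 10 genes was called, nor any of the 17371 genes (0%), and limma-voom likewise gave 0. At an unadjusted p under 0.05, 1 of 10 members passed, Id1, against 6.68% of all genes (1161 genes). The genotype difference of Id1 was higher by 0.69 at 7 dpi than at 3 dpi (SE 0.29, 95% interval 0.01 to 1.37, adjusted p = 0.738). Without control replicate 2 of 7 dpi this was 0.40, and without control replicate 1 of 7 dpi 0.99. The interaction of Chrdl1 was 0.74 with an SE of 0.43, and those of Id2 and Id3 were 0.36 (SE 0.21) and 0.14 (SE 0.22). A call at 1 day only is therefore not shown to be a difference between the days for Id1, Id2 or Bmp6. The interaction of Bmp6 was -0.26 (SE 0.25, adjusted p = 0.938, limma).

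A wider list of 52 genes of the pathway was counted beside the 10: 12 further ligands, 11 receptors and co-receptors, 5 Smads, 16 antagonists and extracellular modulators, and 8 targets. Of these, 41 had enough fragments to be tested. At 3 dpi 1 was called higher and 1 lower, against the 6.29% of all genes (2.37% higher and 3.92% lower). The higher one was Bmpr1b, a type I receptor, at 2.96 and 4.03 TPM in controls and at 8.07 and 5.38 TPM in Osr1cKO (0.77, SE 0.28, adjusted p = 0.786). The lower one was Nog, which encodes the antagonist Noggin, at 5.26 and 5.84 TPM in controls and at 2.38 and 3.11 TPM in Osr1cKO (-0.81, SE 0.21, adjusted p = 0.773). Neither gene's genotypes overlapped. Bmpr1b lost its call without control replicate 1 (0.58) and Osr1cKO replicate 1 (0.50), and Nog without Osr1cKO replicate 1 (-0.69). The median of the 41 genes was -0.02 at 3 dpi.

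At 7 dpi 0 of the 41 were called, and by the unadjusted rule 4 were higher and 8 lower, against the 11.2% given above. Their median was -0.13. All 6 further ligands tested had a value below 0, with a median of -0.34, where 8188 of all 16578 genes tested were below 0. Only 2 of the 6 passed the unadjusted rule. Bmp5, the most abundant further ligand, was at 115 and 123 TPM in controls and at 95.7 and 89.8 TPM in Osr1cKO (-0.49, SE 0.08, adjusted p = 0.207). The libraries did not overlap, and Bmp5 was called without control replicate 1 (-0.52, adjusted p = 0.0605) and by limma-voom on recovered fragments. At 3 dpi Bmp5 had been at 76.6 and 38.4 TPM in controls and at 77.3 and 95.5 TPM in Osr1cKO (0.66, SE 0.33). The Osr1cKO libraries were then both above the controls, and the difference was 1.12 and was called without control replicate 1, and was 0.19 and not called without control replicate 2.

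The most abundant receptor gene was Eng, the co-receptor endoglin, the most abundant Smad was Smad7, a further inhibitory Smad, and the most abundant modulator was Nbl1, an antagonist of the DAN family. None of the 3 was called between genotypes at either day in the fits of all libraries of that day. Eng was called at 3 dpi without Osr1cKO replicate 1 (-0.65) and was at -0.13 without Osr1cKO replicate 2. Nbl1 was called without control replicate 2 (-0.37) and was at -0.23 without control replicate 1. All 3 had both Osr1cKO libraries below both controls at 3 dpi, as had 18.0% of all genes tested. Smad7 was at 296 and 209 TPM in controls and at 173 and 192 TPM in Osr1cKO at that day (-0.44, SE 0.19). It was called without control replicate 2 (-0.68) and was at -0.21 without control replicate 1. Eng and Smad7 fell from 3 to 7 dpi in both genotypes, by 1.36 and 1.19 on the log2 scale in controls and by 1.11 and 0.84 in Osr1cKO, and Nbl1 rose by 0.82 and 1.21. All 6 values had an adjusted p of at most 0.00589. Smurf1, a ubiquitin ligase of the pathway, was between 48.9 and 59.2 TPM in all 8 libraries and was not called in any comparison. Over the wider list, 10 genes rose and 6 fell with day in controls, and 7 rose and 6 fell in Osr1cKO, 16 and 13 of the 41 tested, against 45.3% and 40.5% of all genes. Among the 7 further targets tested, Hey1 rose and Atoh8 fell in both genotypes, by 1.18 and 1.96 in controls and by 0.82 and 1.64 in Osr1cKO on the log2 scale. In Osr1cKO Dlx5 rose by 0.69 and Runx2 fell by 1.02 as well (adjusted p = 0.0169 and 0.0105). Both moved the same way in controls without a call. With 1 library left out, the control differences ran from 0.32 to 0.41 for Dlx5 and from -0.48 to -0.29 for Runx2. No interaction was called for either gene. Mean Dlx5 was low, at 0.60 and 1.03 TPM in controls and at 0.57 and 1.66 TPM in Osr1cKO. These 4 targets, all transcription factor genes, were named after their values were seen. Atoh8 was called with each library left out in turn. Hey1 lost its call in controls without control replicate 1 of 7 dpi (1.06), and in Osr1cKO without any 1 of the 4 Osr1cKO libraries (0.64 to 0.97) or either control of 7 dpi (0.82 and 0.82). Dlx5 lost it without Osr1cKO replicate 1 or 2 of 3 dpi (0.68 and 0.68) or replicate 2 of 7 dpi (0.45), and Runx2 without Osr1cKO replicate 1 or 2 of 7 dpi (-1.04 and -1.003).

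**Figure D5:**
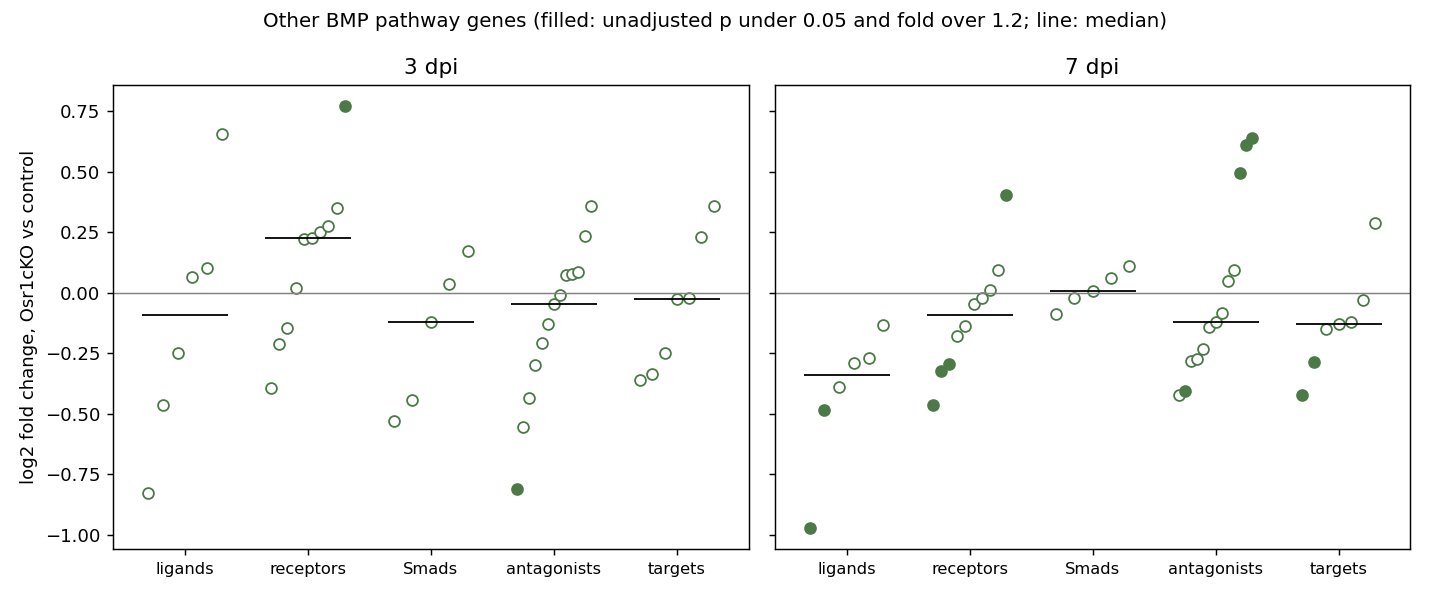
Log2 fold change of Osr1cKO against control (vertical axis, scaled TPM + 1) for the 41 further BMP pathway genes tested, by class, at 3 and 7 dpi; filled points passed the unadjusted rule of 3 dpi, and lines are class medians. At 3 dpi 2 genes are filled, Bmpr1b at 0.77 and Nog at -0.81, and at 7 dpi 12 are, 4 above and 8 below 0.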

How the data were processed

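Per the labels, the authors mapped strand-specific read pairs with STAR against mm10. The authors deposited 1 TPM value per gene symbol and library, calculated from fragment counts that they had normalized with DESeq2. The counting program, annotation and strand setting are not given in the sources used here, and which instrument served which day was not settled. Of 55385 entries, 109 further entries of 106 repeated symbols were left out. With exon lengths from GENCODE release 21, 98.7% to 98.9% of values under 50 fragments fell within 0.02 of a whole number, which gave the depth. Libraries were brought to one scale with a trimmed mean of log ratios (30%), and log2(TPM + 1) was fitted in limma 3.58.1 (R 4.3.3, lmFit, eBayes with a trend) on genes with at least 10 fragments in 2 libraries and 15 in all, or a mean TPM of at least 1 where no length was known. All 10 members passed. P-values were adjusted over all genes tested. The procedure was tested on simulated data. The members and lists were chosen with earlier results of these data known. All members are described, and of the wider list those called between genotypes or most abundant in their class. Bmper, Hey1, Atoh8, Dlx5 and Runx2 were named after their values were seen. Results were recomputed without the scaling, with another pseudocount, other filters, limma-voom, replicate blocks, other thresholds, 1 fit of 8 libraries, and each library left out. Python 3.11.15, pandas 2.3.3, NumPy 2.4.6 and matplotlib 3.10.9 were used.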

Additional observations from a re-analysis of the deposited data

Results flagged for a closer look

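In 3 genes the genotype difference differed between the days at an unadjusted p under 0.05 in the interaction fit of limma, and none of them passed after adjustment over all genes. For Id1 the genotype difference was higher by 0.69 at 7 dpi than at 3 dpi (SE 0.29, adjusted p = 0.738). For Bmp5 it was lower, with an interaction of -1.15 (SE 0.37, adjusted p = 0.661), and without control replicate 1 of 3 dpi this was -1.59 (adjusted p = 0.0316), whereas without control replicate 2 of 3 dpi it was -0.71 (adjusted p = 0.179). Bmper, which encodes a BMP-binding extracellular protein, was at 130 and 136 TPM in controls and 148 and 197 TPM in Osr1cKO at 3 dpi, and at 106 and 129 TPM against 103 and 90.6 TPM at 7 dpi. Its interaction was -0.77 (SE 0.23, adjusted p = 0.642). Bmp5 and Bmper had both Osr1cKO libraries above both controls at 3 dpi and below both at 7 dpi. For Bmp5 at 3 dpi the nearest libraries were at 77.3 TPM in Osr1cKO and 76.6 TPM in controls. Both genes were picked by their interaction, so this order is no further support, and its share over all genes was not counted. Of all 17371 genes, 6.68% had an unadjusted p under 0.05. No group held enough libraries for a test of single outlying samples.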

How the results depend on the processing

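Of 1077 values of single genes recomputed under an alternative, 968 kept their direction and side of the threshold, 27 gained a call, 47 lost one and 35 changed sign, and no value that was called had changed sign. The number of members called at 3 dpi was 0 with an adjusted p under 0.1, and ran from 0 to 6 with 1 library left out; at 7 dpi it was 1 with the unadjusted rule and ran from 0 to 1; for the days in controls it ran from 2 to 6. Without further scaling, Bmp1 (0.13), Bmp2 (0.060) and Smad7 (0.045) changed sign at 7 dpi, as did Bmp2 for the days in controls (-0.026), the days in Osr1cKO (0.020) and the interaction (0.046). In the fit of 8 libraries Bmp1 was at 0.016 at 7 dpi and Smurf1 at 0.0014 at 3 dpi. With 1 library left out, the values at 3 dpi ran from -0.087 to 0.13 for Bmp2, -0.75 to 0.28 for Bmp4, -1.34 to 0.012 for Smad6 and -0.13 to 0.092 for Smurf1. At 7 dpi they ran from -0.053 to 0.050 for Bmp1, -0.11 to 0.40 for Bmp6, -0.41 to 0.60 for Grem1, -0.14 to 0.29 for Chrdl1, -0.14 to 0.43 for Id1, -0.21 to 0.033 for Smad7 and -0.088 to 0.28 for Nbl1. For the days in controls they ran from -0.029 to 0.044 for Bmp2, -0.48 to 0.24 for Chrdl1 and -0.33 to 0.095 for Id3, and in Osr1cKO from -0.19 to 0.014 for Bmp2 and -0.039 to 0.13 for Id3. For the interaction they ran from -0.20 to 0.00024 for Bmp2, -0.69 to 0.29 for Bmp4, -0.12 to 0.90 for Grem1, -0.068 to 0.35 for Id3 and -0.18 to 1.12 for Smad6. Id3 was called at 3 dpi in the fit of 8, and Bmp4 and Grem1 lost their call between the days in controls without a filter. The cause was not tested. Over all genes, the 988 calls at 3 dpi became 1781 in the fit of 8 libraries and 425 to 2815 with a library left out. The 14 at 7 dpi became 0 without scaling, with either other filter or in the fit of 8, 200 by limma-voom, and 3 to 545 with a library left out. The 7864 and 7028 calls between the days ran from 4741 to 8184 and from 3841 to 8257, and the 0 interaction calls became 30 without a filter and 0 to 68 with a library left out. The differences between replicates 1 and 2 correlated between the genotypes at -0.117 at 3 dpi and 0.066 at 7 dpi. A single value a day cannot decide whether same-numbered libraries share more than a number. With the replicate block, 2 members were called at 3 dpi, since Bmp6 was lost (as was Bmpr1b), and the other counts of members were as before. The block with crossed numbers, chosen after seeing the data, called 4 members and 1221 of all genes at 3 dpi. At 7 dpi it called 62 of all genes. Depth limits Grem1 most, and 2 libraries a group limit all comparisons.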

Other observations

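The genes whose pattern over the 8 libraries was most like that of 3 members were found by the root mean square difference of scaled log2(TPM + 1), each gene centred on its mean, among 8426 genes with a mean of at least 10 TPM. For Bmp4 these were Pink1 (0.083), Cyp2d22 (0.117) and Tusc2 (0.133). For Grem1 they were Mcam (0.204), H2bc4 (0.231) and Rgs4 (0.236), and for Id1 they were Dglucy (0.155), Tnk2 (0.184) and Prdx6 (0.190). The values describe 8 libraries that share days, genotypes and the control replicate that stood apart, and no test was made.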
